A study of Mus musculus with 12 samples.

Results

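The genes described here are 38 components of the base of the primary cilium: the transition zone, the basal body beneath it, and proteins that build or pass through them. They were chosen by name, by a rule that sets no level or change but with earlier results of these data known, and are 38 of the 23284 rows of the count table. Under these names 34 were listed, and Ccp110, Cep89, Cep83 and Cep41 were found under the older symbols 6330503K22Rik, Ccdc123, Ccdc41 and Tsga14. All 38 passed the filter on low counts. RNA came from single whole mouse embryos of a C57BL/6 x 129Sv background at 9.0 days post coitum (9 to 10 somites), and polyadenylated RNA was sequenced. The labels call 8 embryos Tgif1;Tgif2 null, with CDKO in their titles, and 4 wild type. The series text describes the 8 as conditional double mutants that lack both alleles of each gene. Which Cre was used, which exons it removes and how litters were split is not stated in the labels.

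The primary cilium is a single, immotile antenna that grows from a centriole docked at the cell membrane. At its base the transition zone, a lattice of Meckel-Gruber (MKS) and nephronophthisis (NPHP) proteins, controls which proteins enter and leave. Vertebrate cells need the cilium to receive Sonic hedgehog, and mutations in many of these genes cause ciliopathies such as Meckel, Joubert and Ellis-van Creveld syndromes.

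Total counts per embryo lay between 16802367 and 21346245. Tgif1 stood at 5.50 to 6.87 CPM (counts scaled to 1000000 per library, after TMM scaling) in the CDKO-labelled embryos, against 58.5 to 64.2 CPM in wild type. Tgif2 stood at 84.4 to 116 CPM in the CDKO-labelled embryos against 85.7 to 88.5 CPM in the wild type, so its count did not fall (log2 fold change 0.16, SE 0.08, adjusted p = 0.0958). The deleted exons are not stated, a whole-gene count checks the label only in part, and the embryos are called CDKO-labelled here. One embryo stood apart. In CDKO-labelled embryo 6 the 8 trophoblast and decidua markers summed to 44.6 CPM, while the highest sum in the other 11 embryos was 1.69 CPM. Most of the sum in embryo 6 came from the prolactin-family genes Prl8a2 (35.9 CPM) and Prl3d1 (7.23 CPM). Prl3b1, Gcm1 and Cts7 of the same list were not highest there. They stood at 0, 0.471 and 0.118 CPM, against up to 0.296, 0.519 and 0.154 CPM in the other embryos. Heart genes also differed, and 8 of 10 rose: their sum was 2297 to 4141 CPM with the CDKO label, against 1487 to 1877 CPM without it. Of 8 nervous system markers none passed the test, with sums of 596 to 884 CPM in the CDKO-labelled and 718 to 849 CPM in wild-type embryos. None of 10 yolk sac genes passed either, at 742 to 3509 CPM in CDKO-labelled and 629 to 2293 CPM in wild-type embryos. Nor did any of 8 red cell genes, though 7 had a negative estimate (median log2 fold change -1.02). Their sums spread widely, at 37.4 to 1722 CPM (median 386) in CDKO-labelled and 811 to 1356 CPM (median 1033) in wild-type embryos. In whole embryos, fewer cells of a type and less RNA per cell cannot be told apart.

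Genes of the ciliary base were mostly lower in the CDKO-labelled embryos. Of the 38, 23 fell, 2 rose and 13 did not pass the test, 7 of them with a negative and 6 with a positive estimate (edgeR quasi-likelihood test, adjusted p under 0.05 over all genes tested). That is 60.5% lower and 5.26% higher, whereas of the 14412 genes tested 51.5% changed, 24.9% lower and 26.6% higher. Counts by role below rest on 2 to 10 genes each and are to be read beside these shares. The median log2 fold change of the 38 was -0.27, beside 0.01 for all genes. In 15 of the 38 every CDKO-labelled embryo lay below every wild-type embryo, and in 1, Fuz, every one lay above. Over all genes 17.1% were separated downwards and 17.5% upwards. The changes were moderate: the median of the 23 that fell was 0.778 of the wild-type level, and 4 of them, Cep290, Tctn2, Rpgrip1l and Ccp110, fell by more than 1.5-fold. Without CDKO-labelled embryo 6 the counts were again 23 lower and 2 higher.

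**Figure D1:**
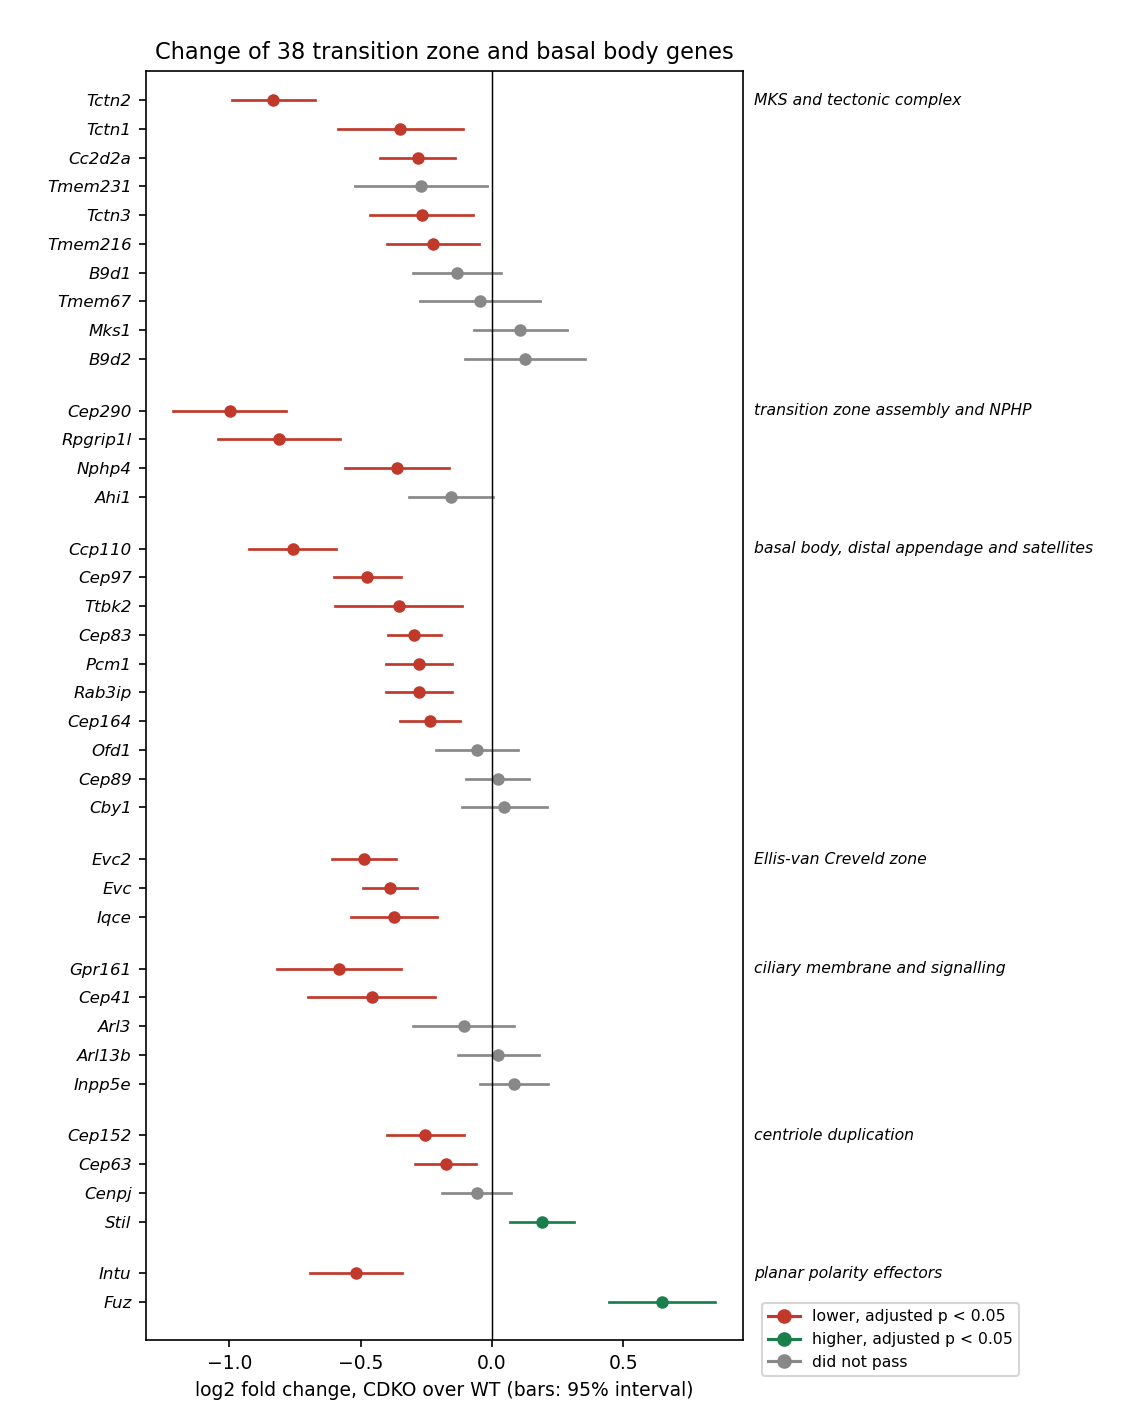
Log2 fold change (x axis, CDKO-labelled over wild type) of each of the 38 genes, one row a gene, grouped by role. Points are estimates from 8 CDKO-labelled and 4 wild-type embryos, bars are 95% intervals, and colour gives the call. Most points lie left of 0, with Cep290 at -0.999 the lowest and Fuz at 0.65 the highest.

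Promoter sequence gave a feature that the choice of genes had not used. RFX transcription factors, regulators of many ciliary genes, bind the X-box, a palindrome whose half-site is GTTGCC. RefSeq promoters (GRCm38.p6, 250 bases before to 50 after the start) were at hand for 35 of the 38 genes. The half-site was searched on both strands, and so was a full X-box, GTTNCCNNGGNAAC, which can contain it. The half-site lay in a promoter of 18 of 35 genes (51.4%), against 14.7% of the 11301 tested genes with a promoter. A full match lay in 4 of 35 (11.4%), against 0.619% of all. Over all 27025 genes with a listed promoter, tested or not, the shares were 14.1% for the half-site and 0.529% for a full match. The 35 genes had 1.23 listed promoters a gene, and those 27025 genes had 1.22. Promoters of the 35 were richer in G and C, with a median of 60% against 52.7% over the 27025 genes. The median for the 11301 tested genes was not taken. The part of G and C content in the shares was not tested. The half-site was found in 10 of 21 genes that fell (47.6%) and in 8 of 14 of the others (57.1%). CTGTCA, a site recognised by TGIF proteins, was found in 6 of 35 (17.1%), against 19.6% of all. A match describes letters and is not a shown binding site. The 4 promoters with a full match are printed first, and then those of Tctn2 and Ccp110. Of the 4 genes that fell by more than 1.5-fold, Tctn2 and Ccp110 hold a half-site, and Cep290 and Rpgrip1l hold none. Capitals mark the X-box matches, and each runs 5′ to 3′ on the strand of the gene.
Tctn1, chr5:122264411-122264710, minus strand: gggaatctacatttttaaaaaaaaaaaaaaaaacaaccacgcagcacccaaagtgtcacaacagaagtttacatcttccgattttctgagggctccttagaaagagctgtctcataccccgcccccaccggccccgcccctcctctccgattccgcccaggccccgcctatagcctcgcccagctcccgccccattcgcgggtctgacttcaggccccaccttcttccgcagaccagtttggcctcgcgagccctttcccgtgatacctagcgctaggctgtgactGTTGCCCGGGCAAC
Mks1, chr11:87852965-87853264, plus strand: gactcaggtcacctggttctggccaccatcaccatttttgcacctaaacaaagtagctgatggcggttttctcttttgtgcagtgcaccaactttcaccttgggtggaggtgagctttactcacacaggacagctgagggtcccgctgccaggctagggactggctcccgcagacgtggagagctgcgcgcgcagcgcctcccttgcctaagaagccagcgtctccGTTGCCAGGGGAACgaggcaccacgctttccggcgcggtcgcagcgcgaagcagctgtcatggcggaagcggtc
Ahi1, chr10:20952297-20952596, plus strand: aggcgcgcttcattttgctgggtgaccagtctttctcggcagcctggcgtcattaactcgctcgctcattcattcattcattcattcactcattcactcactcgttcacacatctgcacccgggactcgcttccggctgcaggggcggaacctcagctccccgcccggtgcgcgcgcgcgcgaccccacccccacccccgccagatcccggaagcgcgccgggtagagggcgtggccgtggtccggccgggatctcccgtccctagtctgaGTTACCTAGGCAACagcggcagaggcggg
Rab3ip, chr10:116950404-116950703, minus strand: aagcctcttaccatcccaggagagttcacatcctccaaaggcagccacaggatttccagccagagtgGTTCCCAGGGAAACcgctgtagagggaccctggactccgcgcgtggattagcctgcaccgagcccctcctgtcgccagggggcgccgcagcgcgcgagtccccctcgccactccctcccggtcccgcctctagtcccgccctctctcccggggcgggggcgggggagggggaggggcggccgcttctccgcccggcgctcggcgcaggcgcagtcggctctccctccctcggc
Tctn2, chr5:124598499-124598798, plus strand: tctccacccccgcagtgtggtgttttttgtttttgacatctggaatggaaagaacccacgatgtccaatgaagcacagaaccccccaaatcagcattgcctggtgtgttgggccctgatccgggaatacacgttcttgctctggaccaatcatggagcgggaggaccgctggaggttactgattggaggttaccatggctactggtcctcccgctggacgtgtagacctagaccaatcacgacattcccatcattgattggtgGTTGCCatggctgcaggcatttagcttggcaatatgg
Ccp110, chr7:118712293-118712592, plus strand: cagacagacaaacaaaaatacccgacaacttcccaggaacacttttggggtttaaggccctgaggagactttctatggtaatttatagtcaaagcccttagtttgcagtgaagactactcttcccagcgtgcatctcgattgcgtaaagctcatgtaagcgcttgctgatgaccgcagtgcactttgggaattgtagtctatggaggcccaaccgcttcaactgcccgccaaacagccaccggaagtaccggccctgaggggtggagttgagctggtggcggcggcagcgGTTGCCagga
Tctn1 and Rab3ip fell and Mks1 and Ahi1 did not pass, so both outcomes occurred among the genes with a full match. In Tctn1 the match began at base 37 of the transcript, in Ahi1 at base 22, and in Mks1 and Rab3ip before it, at offsets of -24 and -183.

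Among 10 genes of the MKS and tectonic complex, the membrane part of the transition zone, 5 fell and none rose (median log2 fold change -0.25). Tctn2, a tectonic, had 17.7 to 23.3 CPM (median 19.97) in the CDKO-labelled embryos, against 36.9, 32.7, 37.8 and 39.5 CPM in wild type. The groups were far apart, and the log2 fold change was -0.83 (SE 0.08, adjusted p = 9.06e-07). Its relatives changed less. Tctn1 ranged from 4.59 to 7.23 CPM (median 5.62) in the CDKO-labelled embryos and stood at 6.49, 8.36, 7.72 and 6.73 CPM in wild type. All 8 lay below the wild-type mean, though the groups overlapped (-0.35, SE 0.12, adjusted p = 0.0254). Leaving out wild-type embryo 2 or 3 ended this call (adjusted p = 0.108 and 0.0667). Tctn3 averaged 10.8 ± 1.29 CPM in CDKO-labelled embryos (SD, n = 8) and 13.03 ± 0.814 CPM in wild-type embryos (n = 4), a change of -0.27 (SE 0.10, adjusted p = 0.034). Its call was lost without wild-type embryo 1, 2 or 4 or CDKO-labelled embryo 2 (adjusted p of 0.0547 to 0.0998), and also with red cell genes as a covariate (adjusted p = 0.0968) or no count filter (adjusted p = 0.0516). Cc2d2a, a coiled-coil and C2 domain protein of the same complex, averaged 22.4 ± 1.68 CPM in CDKO-labelled and 27.3 ± 2.40 CPM in wild-type embryos (-0.28, SE 0.07, adjusted p = 0.00468). Tmem216, a membrane protein, had the weakest of the calls (-0.22, SE 0.09, adjusted p = 0.0478), lost under 15 of 25 other settings, among them leaving out wild-type embryo 1, 2 or 3 or CDKO-labelled embryo 1, 2, 3, 4, 5 or 8 (adjusted p of 0.0501 to 0.13) and red cell genes as a covariate (adjusted p = 0.171). Genes that did not pass were the B9-domain genes Mks1 (0.11, 95% interval -0.07 to 0.29), B9d1 (-0.13, -0.30 to 0.03) and B9d2 (0.13, -0.10 to 0.35), Tmem67, which encodes meckelin (-0.05, -0.27 to 0.18), and Tmem231 (-0.27, -0.52 to -0.02, adjusted p = 0.0919). No B9-domain gene passed in this fit, but with the trend on GC content and length removed B9d1 was lower (-0.30, adjusted p = 0.00551), as was Tmem231 (-0.34, adjusted p = 0.0409). Exons of Tctn1, Tmem216 and Tmem67 overlap genes on the other strand, and Tmem67 shares a stretch with Rbm12b1, so their counts are uncertain. Cpsf7, over 5.15% of the Tmem216 exon bases, averaged 113 CPM in CDKO-labelled and 141 CPM in wild-type embryos (-0.32, SE 0.05, adjusted p = 0.000127). Rbm12b2, which overlaps Tmem67, also fell (-0.29, SE 0.11, adjusted p = 0.0329). Hvcn1, which overlaps Tctn1, did not pass (-0.16, SE 0.08). The part of these neighbours in the calls was not tested.

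Of 4 genes that anchor and assemble the transition zone 3 fell, and their median of -0.59 was the lowest of the 7 role groups. Cep290, which bridges microtubules and the ciliary membrane, stood at 0.5004 of its wild-type level. It had 8.05 to 12.7 CPM (median 10.9) in the CDKO-labelled embryos and 21.1, 18.7, 21.5 and 21.9 CPM in wild type. Even the highest CDKO-labelled embryo lay well under the lowest wild-type one (log2 fold change -0.999, SE 0.11, adjusted p = 2.96e-06). Rpgrip1l, a scaffold for both MKS and NPHP proteins, had 11.8 to 19.9 CPM (median 14.03) in CDKO-labelled embryos, against 26.8, 22.1, 27.7 and 25.6 CPM in wild type (-0.81, SE 0.12, adjusted p = 4.67e-05). The groups did not overlap in either gene. Nphp4, a nephronophthisis gene, had 9.18 to 13.2 CPM (median 11.2) in CDKO-labelled embryos and 14.5, 14.2, 13.9 and 14.3 CPM in wild type (-0.36, SE 0.10, adjusted p = 0.00711). Ahi1, the Joubert syndrome gene that encodes jouberin, did not pass (-0.16, 95% interval -0.32 to 0.00, adjusted p = 0.12). Per kilobase of transcript, Cep290 stood at 1.27 CPM in CDKO-labelled and 2.54 CPM in wild-type embryos, near the low end of the 38 genes, whose wild-type levels ran from 1.28 (Tctn1) to 70.7 CPM per kilobase (Arl3). Cep290 exons overlap 4930430F08Rik on the other strand over 7.58% of their length, and that gene also fell (-0.32, SE 0.10).

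**Figure D2:**
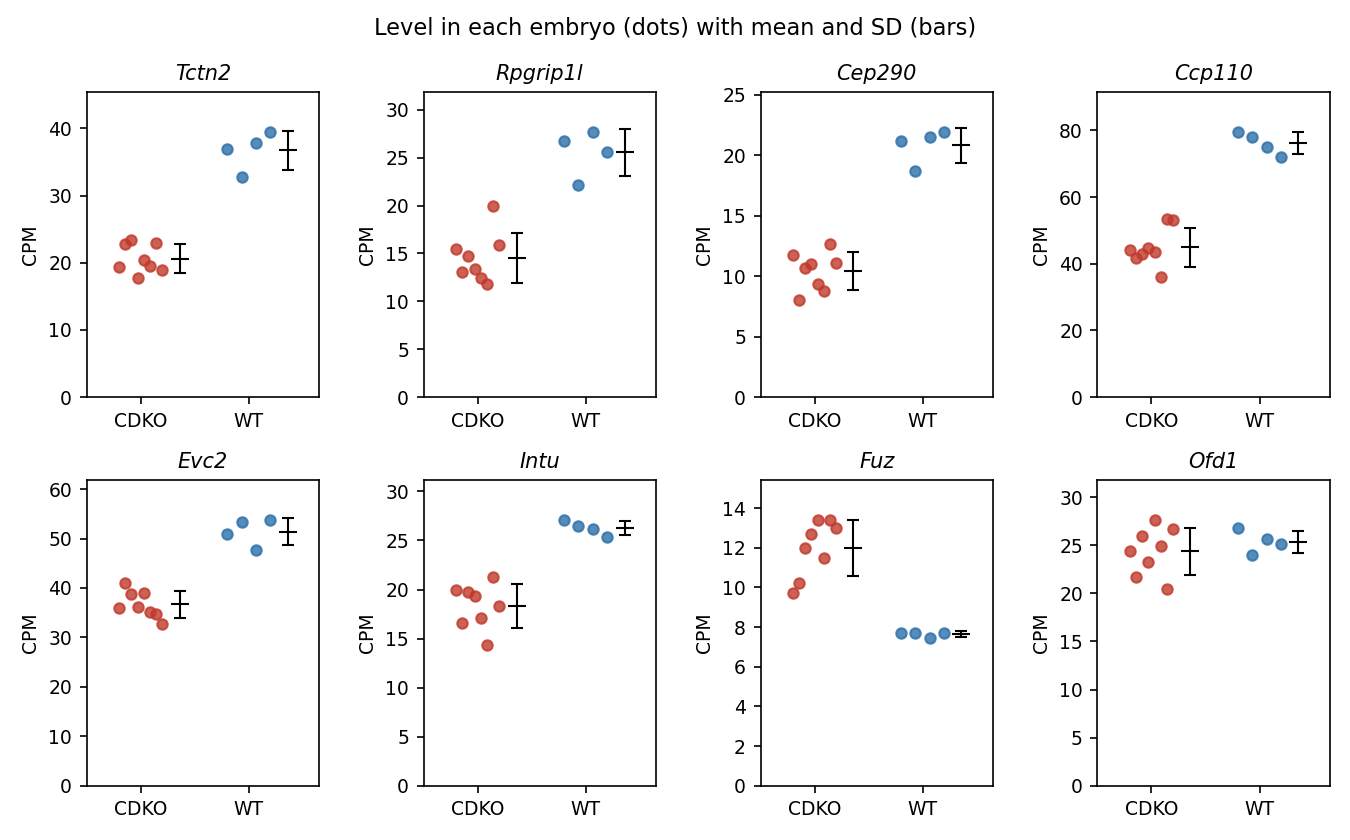
Level in CPM (y axis, from 0) of 8 genes in each CDKO-labelled (red, left) and wild-type (blue, right) embryo, with mean and SD beside the dots. The groups do not overlap for Tctn2, Rpgrip1l, Cep290, Ccp110, Evc2, Intu and Fuz, and they overlap for Ofd1.

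Among 10 genes of the basal body, its distal appendages and the centriolar satellites, 7 fell and none rose (median -0.28). Ccp110 and Cep97 encode partners that cap the centriole and hold back cilium growth. Ccp110 had 35.996 to 53.6 CPM (median 43.8) in the CDKO-labelled embryos, against 79.5, 77.9, 75.1 and 71.9 CPM in wild type (-0.76, SE 0.08, adjusted p = 3.63e-06). Cep97 had 24.9 to 32.6 CPM (median 29.4) in CDKO-labelled embryos, against 41.9, 40.1, 42.8 and 39.6 CPM in wild type (-0.47, SE 0.07, adjusted p = 2.7e-05). Neither gene overlapped between groups. A gene with the opposite role fell too: Ttbk2, the kinase whose action removes the cap, averaged 32.8 ± 6.07 CPM in CDKO-labelled and 41.9 ± 3.30 CPM in wild-type embryos (-0.36, SE 0.12, adjusted p = 0.0262). Its groups overlapped, and 29.9% of its annotated exon bases are shared with Cdan1 on the same strand, which did not pass (0.11, SE 0.06). Leaving out wild-type embryo 2 or 3 ended the Ttbk2 call (adjusted p = 0.0872 and 0.0585), as did red cell genes as a covariate (adjusted p = 0.13). Summed red cell genes stood at 37.4 to 1722 CPM in CDKO-labelled and 811 to 1356 CPM in wild-type embryos. Cep164, the appendage protein that recruits Ttbk2, averaged 56.8 ± 3.62 CPM in CDKO-labelled and 66.9 ± 4.22 CPM in wild-type embryos (-0.24, SE 0.06, adjusted p = 0.00329). Cep83, needed to dock the appendages to the membrane, averaged 45.9 ± 2.25 CPM in CDKO-labelled and 56.3 ± 2.71 CPM in wild-type embryos (-0.30, SE 0.05, adjusted p = 0.000224). Pcm1, the scaffold of the satellites, was the most counted of the 38, at 172 to 230 CPM (median 215) in the CDKO-labelled embryos and 255, 255, 267 and 251 CPM in wild type (-0.28, SE 0.06). Rab3ip, also named Rabin8, activates Rab8 for ciliary membrane delivery and changed by the same -0.28 (SE 0.06). For Cep164, Cep83, Pcm1 and Rab3ip every CDKO-labelled embryo lay below every wild-type one.

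The other 3 basal body genes did not pass the test. Ofd1, an X-linked gene of the distal centriole, had 20.5 to 27.6 CPM (median 24.6) in the CDKO-labelled embryos and 26.8, 24.0, 25.6 and 25.1 CPM in wild type, a difference of -0.06 with a 95% interval of -0.21 to 0.10. Cep89, another distal appendage gene, differed by 0.02 (-0.10 to 0.14). Cby1, which encodes the appendage and transition zone protein chibby, differed by 0.05 (-0.12 to 0.21). Of the distal appendage genes, Cep83 and Cep164 thus passed the test and Cep89 did not, and the difference between them was not tested. A short stretch of Ofd1, 131 exon bases, overlaps Trappc2 on the other strand.

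All of Evc, Evc2 and Iqce fell, with a median of -0.39. Their products form a module just above the transition zone that passes on the Smoothened signal. Evc2 had 32.7 to 41.1 CPM (median 36.03) in the CDKO-labelled embryos, against 50.9, 53.3, 47.7 and 53.7 CPM in wild type (-0.49, SE 0.06, adjusted p = 1.43e-05). Evc had 24.5 to 27.7 CPM (median 26.4) in CDKO-labelled embryos, against 33.6, 35.5, 34.9 and 33.3 CPM in wild type (-0.39, SE 0.05, adjusted p = 2.48e-05). Iqce, which tethers the EVC proteins, averaged 20.9 ± 2.34 CPM in CDKO-labelled and 27.1 ± 0.876 CPM in wild-type embryos (-0.37, SE 0.08, adjusted p = 0.00156). No group overlapped in any of these genes. Evc and Evc2 lie head to head, with 1597 bases between their transcription starts in the RefSeq promoter table.

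Among 5 genes of the ciliary membrane, 2 fell and 3 did not pass (median -0.11), while 24.9% of all genes tested fell. Gpr161, a ciliary receptor that keeps hedgehog targets low, had 6.29 to 9.72 CPM (median 9.13) in CDKO-labelled embryos and 11.2, 14.3, 12.7 and 13.01 CPM in wild type (-0.58, SE 0.12, adjusted p = 0.000912). Cep41, a gene for tubulin glutamylation in the cilium, averaged 13.9 ± 2.51 CPM in CDKO-labelled and 19.1 ± 1.57 CPM in wild-type embryos (-0.46, SE 0.12, adjusted p = 0.00581). The small GTPase genes Arl13b (0.02, 95% interval -0.13 to 0.18) and Arl3 (-0.11, -0.30 to 0.08), which act in sequence to release lipid-anchored cargo, did not pass. Inpp5e, a phosphatase and one such cargo, did not pass either (0.08, -0.04 to 0.21), and 20.3% of its exon bases overlap Pmpca on the other strand. Pmpca averaged 152 CPM in CDKO-labelled and 165 CPM in wild-type embryos (-0.12, SE 0.04, adjusted p = 0.02675). The part of Pmpca in the Inpp5e estimate was not tested.

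Planar polarity effectors moved apart. Intu and Fuz encode subunits of one complex that places and opens the basal body for transport. Intu had 14.3 to 21.3 CPM (median 18.8) in CDKO-labelled embryos and 27.1, 26.5, 26.1 and 25.3 CPM in wild type (-0.52, SE 0.09, adjusted p = 0.000207). Fuz had 9.71 to 13.4 CPM (median 12.3) in CDKO-labelled embryos, against 7.71, 7.70, 7.43 and 7.73 CPM in wild type (0.65, SE 0.10, adjusted p = 9.91e-05). Neither gene overlapped between groups, and they are subunits that changed in opposite directions. Fuz overlaps genes on the other strand: D7Bwg0826e, not tested here, over 24.1% of its exon bases, and Ap2a1 over 14.4%. Ap2a1 stood at 232 ± 18.3 CPM in CDKO-labelled and 203 ± 10.3 CPM in wild-type embryos (0.19, SE 0.06, adjusted p = 0.0143), so without a stated strand setting the rise of Fuz is uncertain. Intu holds a stretch of up to 398 bases, of 6387, that matches 27 other genes at 95% or more.

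Of 4 centriole duplication genes 2 fell and 1 rose, by less than 1.5-fold (median -0.12). So few genes cannot be set apart from the 24.9% lower and 26.6% higher over all genes. Stil, which brings in the cartwheel of a new centriole, rose by 0.19 (SE 0.06, adjusted p = 0.0182), at 43.1 ± 3.02 CPM in CDKO-labelled and 37.8 ± 1.92 CPM in wild-type embryos. Cep152, the scaffold that recruits Plk4, fell by 0.25 (SE 0.08, adjusted p = 0.0109), and its partner Cep63 fell by 0.18 (SE 0.06, adjusted p = 0.0213). For Cep63, 239 exon bases overlap Anapc13 on the other strand, which did not pass (0.10, SE 0.06). Cenpj, which sets centriole length, differed by -0.06 (95% interval -0.19 to 0.07). Groups overlapped in all of these, and leaving out wild-type embryo 1 ended the calls of Stil, Cep152 and Cep63 (adjusted p = 0.0655, 0.0548 and 0.0726). Stil also lost its call when embryo 2 of that group was dropped (adjusted p = 0.0597), and Cep63 when embryo 2 or 3 was (adjusted p = 0.0504 and 0.0659). Proliferation genes moved in both directions. Of 16 listed, 3 rose (18.8%), 8 fell (50.0%) and 5 did not pass, against 26.6% higher and 24.9% lower over all genes. Bub1, Pcna, Mcm2, Mcm3, Mcm5, Mcm6, Top2a and Ccne1 fell, while Mki67, Kif11 and Aurkb rose. Plk1, Aurka, Ccnb1, Ccna2 and Cdk1 did not pass. The summed level of the 16 genes was 4987 to 5364 CPM in CDKO-labelled and 5545 to 5706 CPM in wild-type embryos. Their part in the centriole results was not tested.

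The falls were shared by all 8 CDKO-labelled embryos but differed in depth. The median over the 38 genes of the log2 ratio to the wild-type mean was -0.44 in embryo 6, the embryo high in Prl8a2 and Prl3d1. It was -0.26 to -0.20 in the other 7 CDKO-labelled embryos. Wild-type embryos lay between -0.02 and 0.02, centred near 0 by construction because the ratio is to their own mean. Embryo 6 had the lowest level of the 8 in 18 of the 38 genes and the highest in none, whereas embryo 7 had the highest in 14. Spread was wider in the CDKO-labelled embryos, where the median of SD over mean was 10.6%, beside 6.21% among wild-type embryos, and over all genes 10.9% beside 7.08%.

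**Figure D3:**
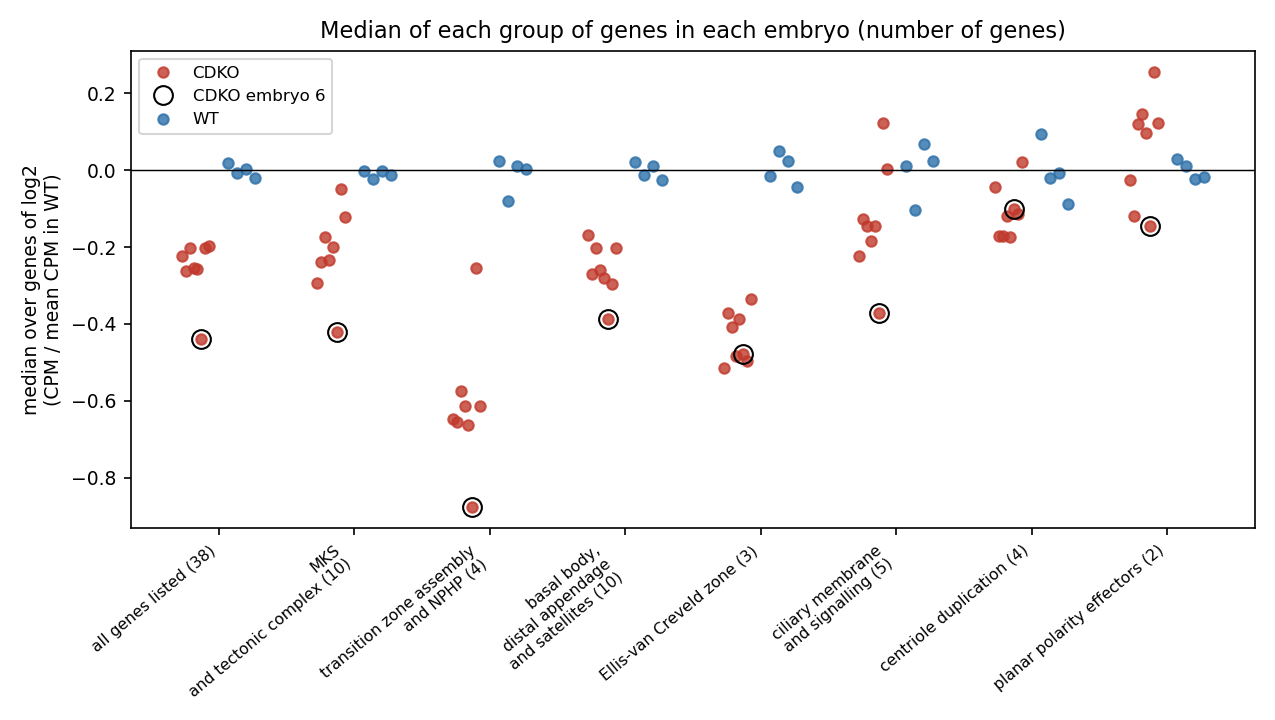
Median over each group of genes of the log2 ratio of CPM to the wild-type mean (y axis), one dot an embryo, CDKO-labelled in red and wild type in blue. Wild-type dots are centred near 0 by construction, since the ratio is to their own mean. CDKO-labelled embryo 6, ringed, is at -0.44 over all 38 genes. Groups do not overlap for the MKS complex, transition zone assembly, basal body and Ellis-van Creveld genes, and they overlap for the membrane, duplication and polarity genes.

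Genes with the longest transcripts fell most. Across the 38 genes the Spearman correlation of transcript length with log2 fold change was -0.59, against -0.11 across all genes with a length, a description over genes that share the same 12 libraries. Of 10 genes with transcripts of 6000 bases or more all 10 fell, with a median of -0.50, while 32.7% of the 1966 genes of that length fell, with a median of -0.08. Of 6 genes under 2000 bases 1 fell (16.7%), near the 15.9% of the 3502 genes of that length. From 2000 to under 4000 bases 5 of 10 fell (median -0.27), against 25.0% of all genes of that length. From 4000 to under 6000 bases 7 of 12 fell (median -0.21), against 30.1%. The medians of these 2 middle ranges thus did not follow length. Median lengths were 5717 bases for the 23 that fell and 2984 bases for the other 15. With the trend on length and GC content removed, 25 genes were lower and 2 higher, the median change was -0.30, and the correlation with length among the 38 was -0.42. All genes moved down as well. Their median went from 0.01 to -0.05, with 4478 lower and 3257 higher, against 3583 and 3840 before.

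**Figure D4:**
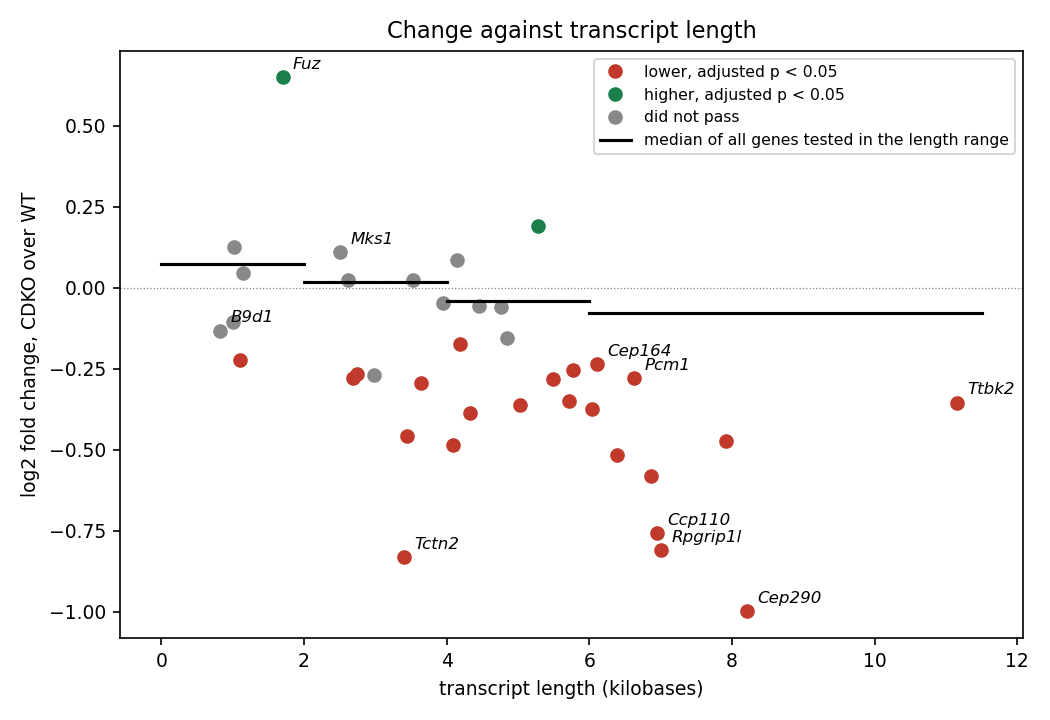
Log2 fold change (y axis, CDKO-labelled over wild type) against transcript length in kilobases (x axis) for the 38 genes, with black lines at the median of all genes tested in each length range. All 10 genes with transcripts of 6000 bases or more lie below the line for their range.

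Other genes of the ciliary base and shaft, which are not among the 38, were counted in the same way. Over all genes tested 24.9% were lower and 26.6% higher. Of 18 further transition zone and inversin genes 9 fell (50.0%) and 3 rose (16.7%), with a median of -0.22. Tulp3, an adaptor that brings Gpr161 into the cilium, changed by -0.45 (SE 0.05). Of 23 intraflagellar transport genes, which carry cargo along the shaft, 13 fell (56.5%) and 2 rose (8.7%), with a median of -0.18. Among those that fell was Ift81 (-0.79, SE 0.09), a partner of Ift74 in tubulin transport. In the basal body and centriole list of 26, directions were more mixed, with 10 lower (38.5%) and 5 higher (19.2%), and a median of -0.06. There the distal appendage gene Sclt1 fell by 0.68 (SE 0.07), while Poc5, a gene for centriole elongation, averaged 44.7 ± 2.78 CPM in CDKO-labelled and 25.4 ± 0.825 CPM in wild-type embryos (0.82, SE 0.06), and Sdccag8, a centrosomal gene, rose too (0.84, SE 0.08). Of 15 further duplication and centrosome matrix genes 5 fell and 3 rose (median -0.11), with Nedd1, which recruits gamma-tubulin, at -0.45 (SE 0.08) and the matrix gene Pcnt at 0.29 (SE 0.08). Differences between these lists and the 38 genes were not tested. Of 7 node and motile cilium markers none passed the test, with sums of 35.2 to 52.9 CPM in CDKO-labelled and 46.7 to 52.8 CPM in wild-type embryos. Most of each sum was Rfx3, which averaged 33.2 CPM in CDKO-labelled and 37.9 CPM in wild-type embryos. Foxj1 averaged 1.40 and 2.01 CPM (-0.52, SE 0.22, adjusted p = 0.0546). The rest, apart from Rfx2, averaged 1.62 CPM or less, too few counts to judge node cilia.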

How the data were processed

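RNA was measured in 12 single embryos. The authors' deposited table holds raw counts per gene symbol, with a column for each embryo. As the submitters' processing notes say, the tools were STAR, featureCounts, FastQC and DESeq2 and the build mm9. Tool versions, gene models, strandedness and multi-mapping rules are not given in the sources.

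Counts entered edgeR (4.0.16, under R 4.3.3). After filterByExpr and TMM normalization, each gene got a robust quasi-likelihood F test of CDKO-labelled against wild-type embryos, with Benjamini-Hochberg adjustment over the 14412 genes tested and a threshold of 0.05. The SE is the log2 fold change divided by the square root of F, and 95% intervals are 1.96 SE to either side. CPM are counts scaled to 1000000 per library with TMM factors. Lengths and GC are those of the longest protein-coding transcript in GENCODE M21 (GRCm38), matched by symbol. Overlaps use the same annotation; copies are transcripts with at least 200 bases at 95% identity (BLAST 2.17.0). Promoters are from RefSeq (GRCm38.p6).

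Alternatives were limma-voom (limma 3.58.1) with and without quality weights, DESeq2 1.42.0, RLE or upper-quartile factors in place of TMM, other filters, each embryo left out, 2 embryos left out together, Xist or red cell genes as covariates, GC and length trends removed, the 50 most abundant genes left out, and a test against 1.2-fold. The code was tested on simulated data. All 38 genes are named, with up to 4 of lowest p from each further list. Members and lists were chosen with earlier results of these data known. Replicate numbers follow sample order and pair nothing. The series text says single embryos were used; p-values measure the spread between them. The closest pair of libraries in a group had a chi-square of 3.89 per degree of freedom, so none was within sampling noise.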

Additional observations from a re-analysis of the deposited data

Results flagged for a closer look

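In 4 of 76 groups of embryos, taken over the 38 genes, 1 embryo lay far from the rest of its group, and in 8 of 106 with the lists and medians added. About 1 in 20 is given by chance, and the groups share embryos.

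CDKO-labelled embryo 6 was flagged in several measures. Its trophoblast and decidua sum, chiefly Prl8a2 and Prl3d1, was 44.6 CPM, with 0.347 to 1.69 CPM in the other CDKO-labelled embryos. Its median over the 38 ciliary genes was -0.44, with -0.26 to -0.20 in those embryos. Its Cep164 level was 49.3 CPM, with 55.8 to 61.5 CPM in those embryos. The part of those transcripts in the lower ciliary median was not tested; without this embryo the count of genes that fell was 23, the same as with it.

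Heart genes summed to 4141 CPM in CDKO-labelled embryo 2, above the 2297 to 3074 CPM of the others of that label. Among wild-type embryos, Tmem231 was highest in embryo 4, at 16.1 CPM with 13.8 to 14.1 CPM in the others. Cenpj was highest in embryo 1, at 42.3 CPM with 37.7 to 38.1 CPM in the others, and nervous system markers summed to 849 CPM there, with 718 to 731 CPM in the others. Fuz was lowest in wild-type embryo 3, at 7.43 CPM, with 7.70 to 7.73 CPM in the others, a gap that is small beside the 9.71 to 13.4 CPM of the CDKO-labelled embryos.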

How the results depend on the processing

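Over 25 alternatives of 38 genes (950 values), 884 kept their direction and side of the threshold, 49 fell short of it, 4 passed it and 13 changed sign. The 13 were of 8 genes near 0 that passed in neither fit. With GC and length trends removed, Mks1 was at -0.00541, B9d2 at -0.0584, Cby1 at -0.137, Cep89 at -0.0731 and Inpp5e at -0.0289. With the red cell covariate Tmem67 was at 0.0258 and Cenpj at 0.0239 (log2 scale), and without CDKO-labelled embryo 2 and wild-type embryo 1 they were at 0.017 and 0.0122. With 1 embryo left out, Tmem67 ran from -0.118 to 0.000385, Cep89 from -0.00566 to 0.0405 and Arl13b from -0.0201 to 0.0458. The genes that fell, 23, numbered 19 to 25 under the alternatives other than leave-one-out and the test against 1.2-fold, and 18 to 24 with 1 embryo left out. Tested against a change of 1.2-fold, 9 fell and 1 rose, and over all genes 2079 rose and 1144 fell, against 3840 and 3583 without that margin; a larger change is asked for by construction. With 1 embryo left out 1 to 2 of the 38 rose, and over all genes 3369 to 3896 rose and 3107 to 3683 fell. Outside the test against 1.2-fold, the calls lost under at least 1 alternative were those of Tmem216, Tctn1, Tctn3, Ttbk2, Stil, Cep152 and Cep63; the cause was not tested. Calls that held in all 25 were those of Tctn2, Rpgrip1l, Cep290, Cep97, Ccp110, Evc, Evc2, Gpr161, Fuz and Intu. Removing GC and length trends moved the median of all genes to -0.05, and B9d1 (-0.30) and Tmem231 (-0.34) then fell; there, 3257 genes rose and 4478 fell in all. Depth limits the lowest genes: Tctn1 averaged 5.75 CPM in CDKO-labelled and 7.32 CPM in wild-type embryos. No paired analysis was possible because the labels give the groups no shared replicate numbers.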
